A study of Cavia porcellus with 8 samples.

Results

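A pair of immune genes of the guinea pig cochlea, MHC class II (feature AB084158) and CD8 alpha (feature AY303773), was followed animal by animal after electrode insertion. They are 2 of the 13269 features of the array and were taken by their GenBank accessions, the identifiers under which the array lists its transcripts. The animals were male Hartley guinea pigs, 8 weeks old in the sample labels and 7 weeks old in the protocol. In the NOR group (3 animals) a normal silicone dummy electrode, without wires or contacts, was placed in the left cochlea through a small hole near the round window. In the DEX group (3 animals) the electrode silicone also held dexamethasone, a synthetic glucocorticoid. The CNT group (2 animals) did not undergo surgery. The effects of the electrode, the hole and the rest of the procedure therefore cannot be told apart in any comparison with CNT. The procedure included anaesthesia, wound glue and drops of an antibiotic. Implanted cochleae were taken 7 days after insertion, and RNA of each whole cochlea was hybridized to its own 1-color array.

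MHC class II molecules display peptides of engulfed proteins to CD4 T cells and are carried mainly by macrophages, dendritic cells and B cells. CD8 alpha is 1 chain of the coreceptor with which cytotoxic T cells bind MHC class I, and it pairs with itself or with CD8 beta. Macrophages reside in the normal cochlea and further leukocytes enter it after trauma, and glucocorticoids dampen many responses of these cells. Because whole cochleae were measured, more cells of a type and more RNA per cell cannot be told apart in any of the values. The accession does not say which chain of MHC class II the feature measures. Of the 13269 accessions, 0 were found in the RefSeq gene table used here, so that the tissue could not be checked through cochlear marker genes and no gene position or sequence is given.

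The 8 arrays fell into 2 sets of 4 by the signals they shared exactly. Replicates 1 and 2 of both electrode groups made up array set A. Both controls and replicate 3 of each electrode group made up array set B. Pairs of arrays shared between 246 and 384 signal values within a set and between 30 and 52 across sets, and the median deposited signal was between 394.8 and 404.6 in set A and between 307.9 and 324.5 in set B. Neither the labels nor the methods name such sets, so their origin is unknown. Values below are signals after quantile normalization of all 8 arrays, in linear arbitrary units, unless they are called deposited. Group differences are log2 differences of the normalized signals from 1 limma model of the 3 groups, with Benjamini-Hochberg adjustment over all features, and a feature was called at an adjusted p under 0.05.

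The MHC class II signal stood in the order NOR, DEX, CNT without any overlap of animals. It was 3896, 3190 and 4390 in NOR replicates 1, 2 and 3, and 2678, 2899 and 2730 in DEX replicates 1, 2 and 3. In the controls it was 1430 and 1779. Every implanted animal thus lay above both controls, and every DEX animal lay below every NOR animal. The mean was 3825 ± 603 in NOR and 2769 ± 116 in DEX (SD, n = 3 each), and the CNT mean was 1604 ± 247 (SD, n = 2). The deposited signals gave the same separation, with 4329, 3576 and 3957 in NOR, 2931, 3188 and 2462 in DEX, and 1257 and 1567 in CNT. The narrow spread of the normalized DEX signals was not seen in the deposited ones, whose SD was 368 in DEX and 377 in NOR.

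The CD8 alpha signal separated the implanted animals from the controls but not the electrodes from each other. It was 144.8, 161.4 and 158.3 in NOR replicates 1, 2 and 3, and 161.3, 129.9 and 117.2 in DEX replicates 1, 2 and 3. The controls were at 45.7 and 70.9. DEX replicate 1 lay level with NOR replicate 2, the highest NOR animal, just below it here and just above it in the deposited signals (177.9 against 177.8). DEX replicates 2 and 3 lay below all NOR animals and above both controls on both kinds of signal. The mean was 154.8 ± 8.82 in NOR and 136.2 ± 22.7 in DEX (SD, n = 3 each), and the CNT mean was 58.3 ± 17.8 (SD, n = 2). The DEX animals spread more widely than the NOR animals before normalization too, with an SD of 34.9 against 14.0 in the deposited signals, a contrast of spreads that was not tested. CD8 alpha is a dim feature, with between 30.6% and 41.6% of the features on each array below it, whereas between 66.2% and 82.5% lay below MHC class II. The deposited values carry no flag for signals near background.

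**Figure D1:**
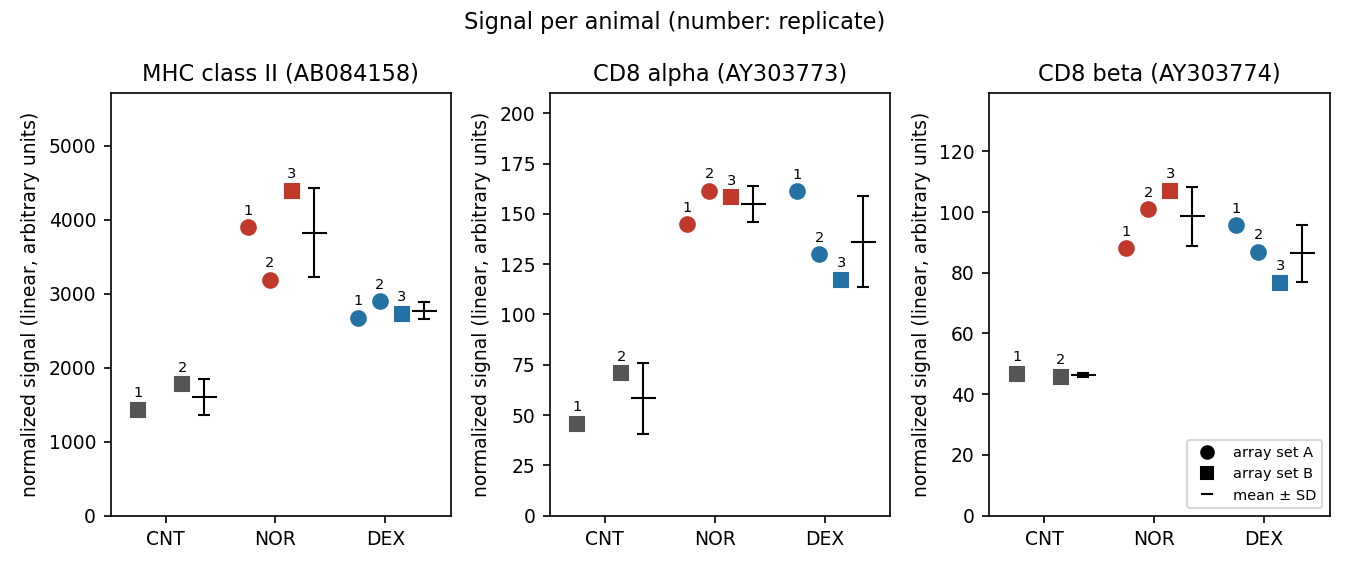
Normalized signal (linear, arbitrary units) of MHC class II, CD8 alpha and its partner CD8 beta in each animal, by group, with circles for array set A, squares for array set B and bars for mean ± SD. The MHC class II signals of DEX, between 2678 and 2899, lie between those of NOR and CNT, while for CD8 alpha DEX replicate 1, at 161.3, lies level with the highest NOR animal.

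The first comparison asked how insertion of a normal electrode changed the cochlea relative to no surgery. Both genes rose. MHC class II was 2.38-fold higher in NOR than in CNT (95% interval 1.83 to 3.09), a log2 difference of 1.25 (SE 0.16, limma adjusted p = 0.00970). CD8 alpha was 2.72-fold higher (95% interval 1.95 to 3.79), a log2 difference of 1.44 (SE 0.21, adjusted p = 0.0132). In the same comparison limma called 536 features (4.04% of all tested) higher, and the animals of 25.5% of all features were separated with NOR above CNT, so that separation by itself is common with 3 animals against 2. The number of features called higher was 974 with the signals as deposited and 372 with each array centred on its median, and of the features called in either direction there were 1092, or 2342 with the replicate number as a block. As run here, the 2-sided exact permutation test over 3 and 2 animals could not go below p = 0.2, which both genes reached. With groups of unequal size this floor depends on how the 2 sides are counted. Without CNT replicate 1, which leaves 1 control, neither gene was called. The log2 differences were then 1.09 for MHC class II and 1.14 for CD8 alpha. Calls over all features became fewer in that fit too, so that the loss is not particular to these genes.

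The controls were all in array set B, and NOR replicate 3 is the only NOR animal of that set. Against the mean of the controls on the log2 scale, NOR replicate 3 was 2.75-fold higher in MHC class II and 2.78-fold higher in CD8 alpha. The values for NOR replicates 1 and 2, of set A, were 2.44-fold and 2.00-fold for MHC class II and 2.54-fold and 2.84-fold for CD8 alpha. The order of the 3 NOR animals depended on the normalization. In the deposited signals the log2 difference from the control mean was 1.49 in NOR replicate 3, against 1.63 and 1.35 in replicates 1 and 2, for MHC class II, and for CD8 alpha it was 1.43, below replicate 2, at 1.67, and replicate 1. With a term for the array set in the fit, the log2 difference was 1.35 for MHC class II (SE 0.18, limma adjusted p = 0.00729) and 1.36 for CD8 alpha (SE 0.24, adjusted p = 0.0128).

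The second comparison set the dexamethasone-eluting electrode against no surgery. Both genes again rose. MHC class II was 1.74-fold higher in DEX than in CNT (95% interval 1.34 to 2.25), a log2 difference of 0.80 (SE 0.16, limma adjusted p = 0.0371). CD8 alpha was 2.37-fold higher (95% interval 1.70 to 3.31), a log2 difference of 1.25 (SE 0.21, adjusted p = 0.0248). Of all features, 328 (2.47%) were called higher in DEX than in CNT, and the animals of 25.4% were separated in that direction. The number called higher was 535 with the signals as deposited and 214 with each array centred on its median. The calls of both genes depended on single animals, and so did those over all features. These went from 650 to 75 without DEX replicate 1, 94 without DEX replicate 2 and 1302 without NOR replicate 3. MHC class II was no longer called without NOR replicate 1, without any 1 of the DEX animals or without either control, with limma adjusted p between 0.0551 and 0.251, and CD8 alpha was not called without DEX replicate 1, DEX replicate 2 or CNT replicate 1, with adjusted p between 0.0731 and 0.154.

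DEX replicate 3, which shares array set B with the controls, was 1.71-fold above the control mean in MHC class II and 2.06-fold above it in CD8 alpha. DEX replicates 1 and 2 were 1.68-fold and 1.82-fold higher in MHC class II and 2.83-fold and 2.28-fold higher in CD8 alpha. In the deposited signals the log2 differences from the control mean were 1.06, 1.18 and 0.81 in DEX replicates 1, 2 and 3 for MHC class II and 1.67, 1.32 and 0.95 for CD8 alpha, with the animal of set B the lowest for both genes. With a term for the array set in the fit, both genes were called, with log2 differences of 0.89 for MHC class II (SE 0.18, limma adjusted p = 0.0226) and 1.16 for CD8 alpha (SE 0.24, adjusted p = 0.0241). Array set B scaled on its own, a choice made after the data were seen, gave log2 differences from the controls of 0.80 and 0.94 for its DEX animal and of 1.49 and 1.36 for its NOR animal, in the order MHC class II and CD8 alpha.

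**Figure D2:**
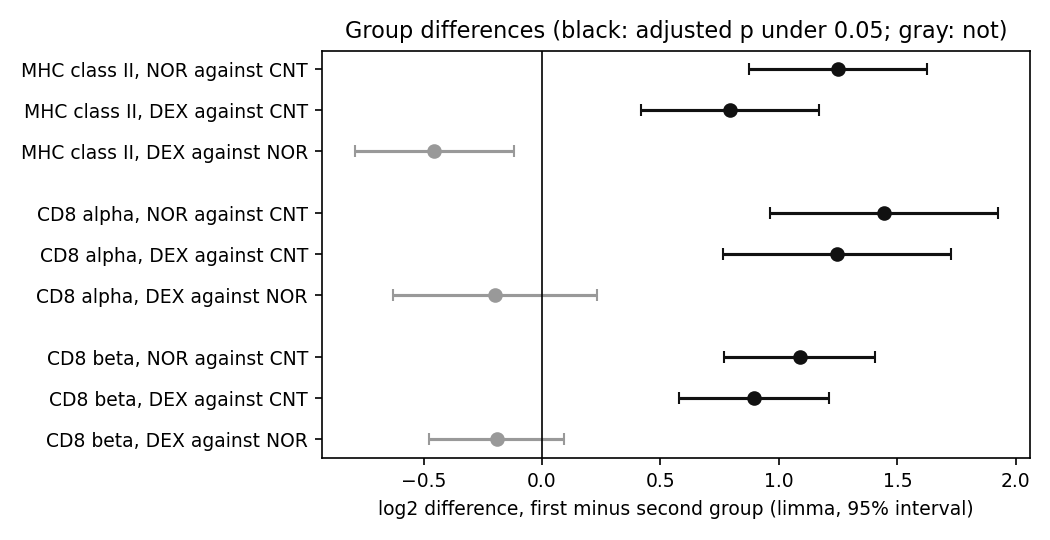
Log2 differences between groups for MHC class II, CD8 alpha and CD8 beta, from limma, with 95% intervals that are not adjusted for the number of features. In DEX against NOR the interval of MHC class II runs from -0.79 to -0.12 and that of CD8 alpha from -0.63 to 0.23, and neither passed the adjusted threshold.

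The third comparison asked whether dexamethasone elution altered the response to the electrode. MHC class II had a log2 difference of -0.45 between DEX and NOR (SE 0.15), a DEX level of 0.730 times that of NOR (95% interval 0.578 to 0.921). The difference was not called over all features (limma unadjusted p = 0.0143, adjusted p = 1.0). In this comparison limma called 0 features (0% of those tested), with 329 features (2.48%) at an unadjusted p under 0.05, and the methods' t-test called 0 after Benjamini-Hochberg adjustment, on the normalized and on the deposited signals. The DEX animals of MHC class II all lay below the NOR animals, as did those of 373 features (2.81%), and the gap between the nearest animals, DEX replicate 2 and NOR replicate 2, was 0.14 on the log2 scale. The exact permutation p was 0.1, the smallest that 3 animals against 3 allow.

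For CD8 alpha the log2 difference between DEX and NOR was -0.20 (SE 0.19, limma unadjusted p = 0.322, adjusted p = 1.0). The 95% interval of the ratio, from 0.647 to 1.18, leaves room for a lower as well as a higher level in DEX. The exact permutation p was 0.3. The log2 difference of MHC class II was lower than that of CD8 alpha by 0.26. Taken per animal, this difference between the genes had an exact permutation p of 0.3 (2-sided), and 0.45 after Benjamini-Hochberg adjustment over the 3 comparisons. With 3 animals against 3 the test cannot go below 0.1, so that it cannot decide whether the genes differ. The size of the difference between the genes rested on single animals, with -0.11 without DEX replicate 1 and -0.42 without NOR replicate 2. Whether the genes differ in their response to dexamethasone elution was thus not settled.

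Within array set A, with 2 animals per electrode, the log2 difference of DEX from NOR was -0.34 for MHC class II and -0.08 for CD8 alpha. Over all features the median of this difference in set A was 0.00 with an SD of 0.19, and 327 features (2.46%) were as low as MHC class II or lower, against 28.0% for CD8 alpha. In array set B, with 1 animal per electrode, the log2 differences were -0.69 and -0.43. The median over all features was -0.01 there and the SD 0.40, and 3.90% of the features were as low as MHC class II and 9.76% as low as CD8 alpha. For CD8 alpha the DEX and NOR animals of set A overlapped, with DEX replicate 1, at 161.3, above NOR replicate 1, at 144.8.

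**Figure D3:**
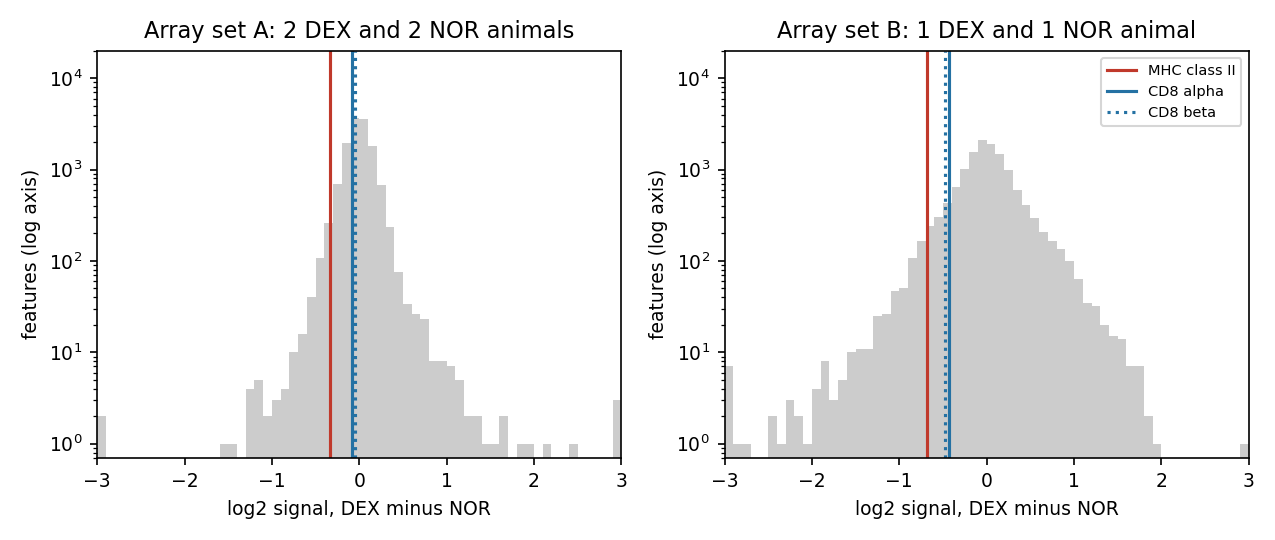
Number of features (log axis) by the log2 signal of DEX minus NOR within array set A and within array set B, with lines for MHC class II, CD8 alpha and CD8 beta. MHC class II lies at -0.34 in set A and at -0.69 in set B, while CD8 alpha moves from -0.08 to -0.43.

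CD8 beta (AY303774), the partner chain of CD8 alpha on cytotoxic T cells, was measured by a separate feature. Its signal was 88.0, 101.0 and 106.9 in NOR replicates 1, 2 and 3, and 95.6, 87.0 and 76.7 in DEX replicates 1, 2 and 3. The controls were at 46.7 and 45.8. As for CD8 alpha, the implanted animals lay above both controls and DEX replicate 3 was the lowest of them. DEX replicate 1 lay within the NOR range. CD8 beta rose 2.12-fold in NOR (limma adjusted p = 0.00898) and 1.86-fold in DEX (adjusted p = 0.0200) relative to CNT, and its log2 difference of DEX from NOR was -0.19 (SE 0.12, adjusted p = 1.0). Within the array sets this difference was -0.05 in set A and -0.48 in set B.

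Other immune genes were taken from the list that the study drew up as higher in NOR than in CNT on these arrays, so that their direction in that comparison is not independent evidence. DEX is compared with the same 2 controls, so that its counts and medians are favored by this choice as well and nothing is read from them against the background. MHC class II and CD8 alpha stand on the same list, and both limits hold for their own differences from CNT. Of the 15 entries taken, 12 could be matched to a single feature. In the T cell and antigen presentation group these were CD8 beta, the lipid antigen-presenting molecules CD1-b1, CD1-b4 and CD1-e, and IL-15, a cytokine that sustains CD8 T cells, with its receptor alpha chain. Limma called 3 of these 6 higher in NOR than in CNT and 3 of 6 higher in DEX than in CNT, namely CD8 beta, IL-15 and IL-15 receptor alpha each time, where 4.04% and 2.47% of all features were called higher. The median log2 differences were 1.12 and 1.12, against 0.01 and 0.01 over all features. The 3 CD1 features, all with a group mean below 50 in every group, were not called. In DEX against NOR 0 of the 6 were called and the median log2 difference was -0.07.

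The second group is called myeloid here, after cells that also carry MHC class II, but its genes are not all confined to such cells. It held the adhesion chain Mo1-alpha (M19663), the 3 Fc-gamma receptor features GPIFCGRB1, GPIFCGRB2 and GPIFCGRB3, and the NADPH oxidase subunit CYBA. It also held TLR3, a receptor for double-stranded RNA, which was not among the cell type markers chosen and was dim (mean 22.3 in NOR). Limma called 4 of these 6 higher in NOR than in CNT, the Fc-gamma receptors and TLR3, and 4 of 6 higher in DEX than in CNT, the Fc-gamma receptors and Mo1-alpha, again beside 4.04% and 2.47% of all features. In DEX against NOR 0 of the 6 were called, with a median log2 difference of 0.41 against 0.00 over all features. The summed signal of the 6 features was 3353 and 3168 in the controls, between 6157 and 12040.1 in NOR and between 9449 and 12046 in DEX. Most of the sum came from GPIFCGRB1, GPIFCGRB2 and CYBA, so that it follows these bright features and not the 6 alike. In set A, where MHC class II was lower in DEX, the log2 difference of DEX from NOR was 1.12, 1.06 and 1.36 for the Fc-gamma receptors GPIFCGRB1, GPIFCGRB2 and GPIFCGRB3 and 0.40 for Mo1-alpha. CYBA, at -0.07, and TLR3, at -0.13, were below 0 there. In set B, with 1 animal per electrode, MHC class II was lower in DEX as well, and all 6 features were below 0. The part of myeloid cells in the MHC class II values was not tested.

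Across array sets, 8 of these 12 features changed the sign of their DEX and NOR difference, the Fc-gamma receptor features among them. The share of all features that changed sign was not counted. With 50.9% of all features below 0 in each set, nothing is read from the count. CD8 beta, IL-15, CYBA and TLR3 kept it, as did MHC class II and CD8 alpha. The count includes signs of values next to 0, with IL-15 at -0.003 in set A and IL-15 receptor alpha at -0.009 in set B. In set A 4 of the 6 T cell and antigen presentation features and 4 of the 6 myeloid features were higher in DEX. The Fc-gamma receptor features were among the latter, and the median log2 differences were 0.29 and 0.73. In set B all 12 were lower in DEX, with medians of -0.49 and -0.39, where 50.9% of all features were below 0. Since the genes were listed for a high level in these NOR animals, a lower DEX value is favored by that choice. This holds for MHC class II and CD8 alpha too, which stand on the same list. GPIFCGRB2, for example, had a log2 difference of 1.06 in set A and of -0.10 in set B, and CD1-e one of 0.34 and -1.01. CD1-e in set A rested on DEX replicate 1, at 98.0, since DEX replicate 2 was at 26.0 and the NOR animals of the set were at 44.1 and below. MHC class II had the lowest DEX and NOR difference of these features in set A and the fourth lowest in set B, after CD1-e, TLR3 and CD1-b1. Set B holds 1 animal per electrode, and no difference between the sets was tested.

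**Figure D4:**
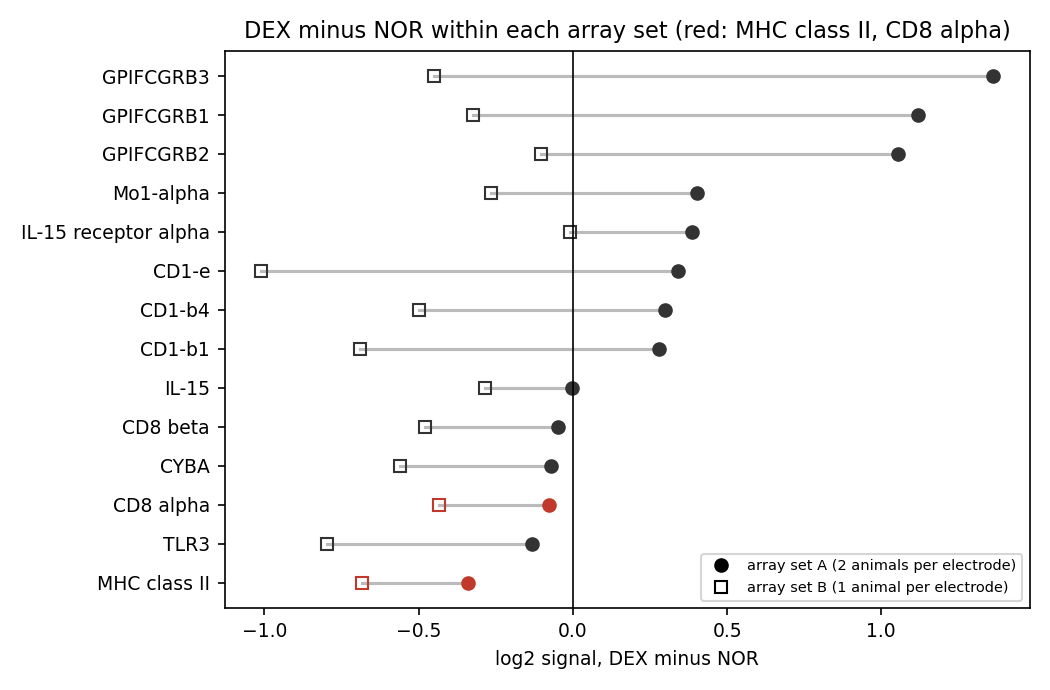
Log2 signal of DEX minus NOR for MHC class II and CD8 alpha (red) and the 12 other immune features (black), with filled circles for array set A (2 animals per electrode) and open squares for array set B (1 animal per electrode). MHC class II is at -0.34 and -0.69, and the Fc-gamma receptors are above 0 in set A and below 0 in set B.

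The features whose log2 signals followed each gene most closely over the 8 arrays were sought among the 6634 features with at least the median SD. The arrays mix implanted and control animals and both array sets, so that Pearson's r is given as a description. For MHC class II these were EB372044 (r = 0.990), EL937160 (r = 0.982) and EL937576 (r = 0.980), which the files do not pair with gene names. EB372044 had a log2 difference of 0.55 between NOR and CNT and of -0.26 between DEX and NOR, smaller than those of MHC class II. EL937160 had a log2 difference of 2.32 between NOR and CNT and of -0.82 between DEX and NOR, and EL937576 had 1.27 and -0.44. For CD8 alpha they were EB370353 (r = 0.985), EL939292 (r = 0.985) and EB372158 (r = 0.982), with log2 differences of DEX from NOR of -0.06, -0.04 and -0.07. An r above 0.9 was reached by 157 features with MHC class II and by 226 with CD8 alpha, and CD8 beta had an r of 0.955 with CD8 alpha and of 0.908 with MHC class II.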

How the data were processed

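For 13269 features on 8 arrays of 1 animal each, the authors deposited linear intensity values, scanned and extracted with Agilent software; the submitters' processing notes name RMA, without saying how it was applied, and no per-sample column was left unused. The deposited intensity ran from 1.86 to 43479. Gene names were given to features whose 3 group averages equaled the printed ones to the last printed digit; for CCL5, C3AR1 and GPR34 there was no single such feature. Quartiles and medians differed by up to 0.39 (log2), so log2 signals were quantile-normalized, without a floor. Limma 3.58.1 (R 4.3.3) was fitted to all features and 3 groups (prior degrees of freedom 2.92), and the procedure was checked on simulated data. Exact permutation tests over animals were 2-sided. The members, lists, array sets and tests were chosen with earlier results of these data known. Named genes were the members, the matched list genes and the 3 features most like each member. Sets were formed by joining arrays with at least 150 shared values. Residuals of NOR and DEX animals of the same replicate number correlated (r = 0.221, 0.360 and 0.526), all above 0.1, but so did those of different numbers within a set (0.205 and 0.328), while across sets r lay between -0.436 and -0.272; nothing in the labels gives the number a meaning. The number of arrays limits the precision.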

Additional observations from a re-analysis of the deposited data

How the results depend on the processing

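In all 17 alternative settings, 8 of which left out 1 animal, both genes kept the direction of each of the 3 group differences. After Benjamini-Hochberg adjustment Student's t-test, the kind of test the methods name, called neither gene. On the normalized signals the log2 ratios of linear averages were 1.25 (MHC class II) and 1.41 (CD8 alpha) in NOR relative to CNT and of 0.79 and 1.22 in DEX relative to CNT. On the deposited signals, added after the data were seen, they were 1.49 and 1.51, and 1.02 and 1.32. Unadjusted, the test passed 0.05 for MHC class II in DEX against NOR on both kinds of signal, at -0.47, and on the deposited signals it missed it for CD8 alpha in DEX against CNT, at 1.32. With each animal left out in turn, MHC class II lay between 1.09 and 1.40 (NOR against CNT), 0.63 and 0.95 (DEX against CNT) and -0.58 and -0.35 (DEX against NOR), and CD8 alpha between 1.14 and 1.80, 0.94 and 1.60, and -0.32 and -0.09, and the difference between the genes in DEX against NOR lay between -0.42 and -0.11; where 1 control was left, its spread was taken to equal that of the rest. Chosen after the data were seen, array set B alone gave 0.80 and 0.94 for DEX against CNT and 1.49 and 1.36 for NOR against CNT. The spread between animals in that fit came from the 2 controls only, which says little of stability, so that no call is read from it. Set A alone, also chosen after the data were seen, gave -0.34 and -0.08 for DEX against NOR. The replicate block (0.75 and 1.29 in DEX relative to CNT, 1.48 for CD8 alpha in NOR relative to CNT) changed no call of either gene. For NOR against CNT the calls over all features went from 1092 to 445 with only the groups compared, 2342 with the replicate block, 2689 with the array set in the model, 2628 and 0 by the t-test before and after adjustment (2944 and 7 on the deposited signals), and between 95 and 1248 with 1 animal left out. For DEX against CNT they went from 650 to 1029 without the lowest 25% of features, 1028 with trend and robust variances, 1888 with the replicate block, 1957 with the array set, 2732 and 4 by the t-test (2544 and 2 on the deposited signals), and between 36 and 1302 with 1 animal left out. For DEX against NOR they were 0 in each limma setting that used both array sets and 287 by the unadjusted t-test (207 on the deposited signals). In NOR against CNT, 536 calls were higher and 556 lower, against 974 and 325 with the signals as deposited and 372 and 892 with median centring. The DEX against CNT calls split into 328 and 322, 535 and 137, and 214 and 352 in the same order. The median feature was at 0.01, 0.15 and -0.11 (log2) in NOR against CNT and at 0.01, 0.14 and -0.09 in DEX against CNT under these scalings.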
